A study of Mus musculus with 12 samples.

Results

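Chaperones and protein folding enzymes were examined in the renal medulla, the inner zone of the kidney where urine is concentrated, of mice under water restriction and of control mice. The genes were chosen by a rule on their symbols. They comprise the heat shock proteins of the Hspa to Hspe and Hsph series, the Hsp90 and DnaJ families, the CCT ring with Tcp1, the BAG co-chaperones, the protein disulphide isomerases, the FKBP and cyclophilin prolyl isomerases, and Stip1, Chordc1 and Cryab. The rule matched 70 genes, and Hspa5, Hspa4l and Dnajc3 were left out, which leaves 67 folding genes of 6786 genes measured. By the place assigned here to their proteins, 37 were put in the cytosol, 7 in mitochondria and 11 in the endoplasmic reticulum (ER). Another 11 were put in the nucleus or other sites, and 1, Hspd1-ps3, is a pseudogene.

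Most proteins need help to reach and keep their shape. Hsp70 proteins bind stretches of unfolded chain, DnaJ proteins deliver the chains and start the ATP cycle of Hsp70, and ring-shaped chaperones (CCT in the cytosol, Hspd1 with its lid Hspe1 in mitochondria) enclose a chain while it folds. Cells of the renal medulla live in high salt and urea, which disturb protein shape, and kidney cells are known to raise several heat shock proteins under hypertonic stress.

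The arrays compare 3 water-restricted mice with 3 control mice. Strain, age, sex and the length of water restriction are not given in the labels used here. RNA of the medulla was amplified, and every water-restricted mouse was set against every control mouse on 2-colour arrays, which makes 9 pairs of mice. In 3 of the pairs both dye orientations were made, so there are 12 arrays. In the 546 orientation (6 arrays) Alexa Fluor 546 marked the water-restricted mouse and Alexa Fluor 647 the control mouse, and in the 647 orientation (6 arrays) the dyes were exchanged. The values are log2 ratios of one mouse over the other. They were combined into 1 level for each mouse on the log2 scale, with the 6 levels of a gene summing to 0, and the difference is the mean of the water-restricted mice minus the mean of the control mice. Which dye the authors divided by which is not stated in the labels. If they divided Alexa Fluor 546 by 647, a positive difference means a higher level under water restriction. If they divided the other way, it means a lower one, and so each result is given by its side. A ratio does not show how abundant a transcript is, and the level of a marker gene cannot be used to check the tissue. In a piece of tissue, fewer cells of a type and less RNA per cell cannot be told apart.

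Across spots, the SD lay between 0.515 and 0.764 for 11 arrays. One array, that of water-restricted mouse 2 with control mouse 2, had an SD of 1.21 and stands apart from the rest. It is called the mouse 2 array. Leaving it out moved the difference between groups by over 1.5 times, or to the other side, in 34 of the 67 folding genes. Of these 9 changed side. The value without that array is given for only some of the 34. The arrays of a dye-swapped pair, turned to the same direction, correlated over all clones at 0.136, -0.13 and 0.133. Over the folding genes, with the clones of a gene averaged, they correlated at 0.222, -0.0901 and 0.149. Repeat arrays of the same mice thus shared little of their values.

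Promoter sequences are shown for the folding genes that hold the letters of a classical regulatory element of this family. Heat shock factor reads the heat shock element, and the ER stress factors that act with NF-Y read the ER stress element. The letters GAANNTTCNNGAA, on either strand, were searched in RefSeq promoter windows of build GRCm38.p6, which run from 250 bases before to 50 bases after a gene's start. Of 53 folding genes with a window, 5 held them (9.43%), namely Hsph1, Chordc1, Dnajb6, Hspd1 and Hspe1, against 179 of 27025 genes in all (0.662%). Overlapping matches give 3 in Chordc1. In the lines below, capitals mark the matched letters and lower case is other sequence of the window. Each line is read 5′ to 3′ on the strand of the named gene. Hsph1 lies at chr5:149636279-149636308 on the minus strand, Chordc1 at chr9:18292260-18292289 on the plus strand and Dnajb6 at chr5:29735822-29735891 on the plus strand. The stretch of Hsph1 lies wholly past the annotated start, and that of Chordc1 runs across it.
Hsph1: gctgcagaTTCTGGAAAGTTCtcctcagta
Chordc1: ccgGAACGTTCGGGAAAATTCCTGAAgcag
Dnajb6: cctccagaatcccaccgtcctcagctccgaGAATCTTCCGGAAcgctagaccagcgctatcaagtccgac

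Hspd1 and Hspe1, the barrel and the lid of the mitochondrial ring, are transcribed away from each other, and 1 stretch between their starts serves both windows. It is shown on the plus strand, that of Hspe1, at chr1:55088019-55088128, and its 2 overlapping matches are in capitals. Both matches lie in the window of Hspd1 as well, on the minus strand.
Hspe1: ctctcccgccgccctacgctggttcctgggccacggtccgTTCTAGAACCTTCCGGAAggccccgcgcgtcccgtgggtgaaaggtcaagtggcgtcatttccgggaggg

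The ER stress element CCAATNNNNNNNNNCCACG, on either strand, was found in 2 of the 53 folding genes (3.77%), Hsp90b1 and Pdia6, against 37 of 27025 genes in all (0.137%). Both are ER genes, of 9 ER genes with a window. Hsp90b1 lies at chr10:86705517-86705676 on the minus strand and holds 2 matches, one of them as the reverse complement. Pdia6 lies at chr12:17266461-17266540 on the plus strand. A match is a run of letters and does not show that a factor was bound.
Hsp90b1: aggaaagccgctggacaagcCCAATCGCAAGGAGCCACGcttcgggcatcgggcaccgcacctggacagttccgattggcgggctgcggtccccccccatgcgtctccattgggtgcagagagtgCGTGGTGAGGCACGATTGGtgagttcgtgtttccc
Pdia6: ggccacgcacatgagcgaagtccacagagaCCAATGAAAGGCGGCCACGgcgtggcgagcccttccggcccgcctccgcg

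Between water-restricted and control mice, most folding genes had a positive difference. Of the 67 genes 46 were positive (68.7%), against 50.7% of all genes, and their median log2 difference was 0.11, against 0.0034 over all genes. Taken without turning the sign of the 647 orientation, 49 were positive (73.1%), against 59.4% of all genes, and 27 folding genes changed side. The differences of single genes were not steady over mice either, since 59 of the 67 moved by over 1.5 times or changed side when some 1 mouse was left out, 25 of them to the other side. No single gene passed the test. By limma on the mouse levels, adjusted after Benjamini-Hochberg over all genes and read at a threshold of 0.05, 0 of 67 folding genes and 0 of 6786 genes (0%) were called, and the adjusted p of the folding genes ran from 0.749 to 0.999. At an unadjusted p under 0.05 limma gave 4 folding genes, all positive (5.97%), against 4.97% of all genes and 3.21% of all genes on the positive side. In 10 folding genes (14.9%) the levels of all 3 water-restricted mice lay above those of all 3 control mice, against 5.94% of all genes. In 2 (2.99%) they all lay below, against 3.86% of all genes. The 10 are Hsph1, Hspd1, Hspd1-ps3, Dnajb11, Dnajb9, Dnajb6, Dnajc2, Tcp1, Hsp90aa1 and Bag1, and the 2 are Bag2 and Fkbp3. A second limma fit, which treats the mice as random effects and keeps the arrays as single values, called 99 genes (1.46%) and 1 folding gene (1.49%), Hsph1 (limma adjusted p = 0.0398), a positive one as were 0.943% of all genes. That fit sets the same ratio of mouse to array variance for every gene and takes its error from the arrays. Its p can be too small for a gene that varies more between mice.

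The compartments are given side by side, with no test of the difference between them. In the cytosol 28 of 37 genes were positive, with a median log2 difference of 0.22. In mitochondria 7 of 7 were positive, with a median of 0.24. In the ER 7 of 11 were positive, with a median of 0.10, and in the nucleus or other sites 3 of 11 were, with a median of -0.07. Without the mouse 2 array the medians were 0.14 in the cytosol, 0.19 in mitochondria and 0.03 in the ER, and 43 of the 67 genes were positive.

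**Figure D1:**
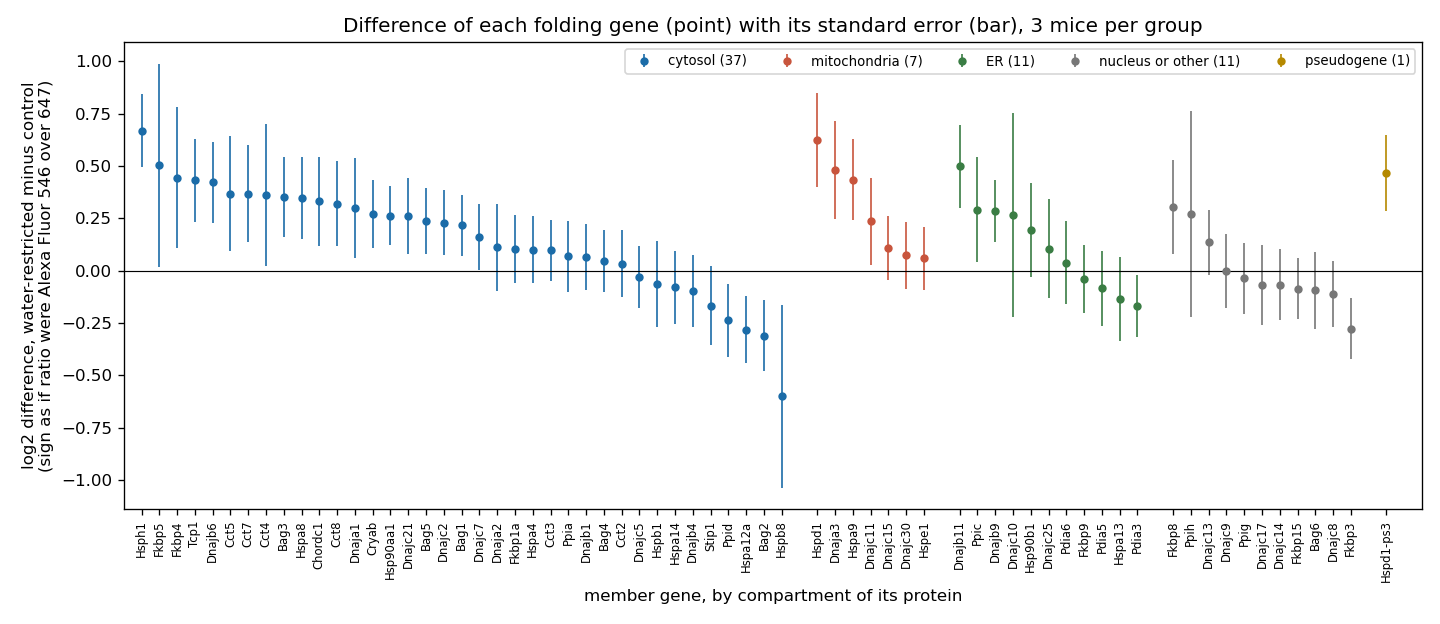
Log2 difference, water-restricted minus control, of each of the 67 folding genes (points), with its standard error (bars), 3 mice per group, grouped by the compartment of the protein. All 7 mitochondrial points lie above 0, and 8 of 11 points of the nucleus or other sites lie below it.

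The cytosolic Hsp70 system held the gene with the smallest p. Hsph1, the Hsp110 protein that exchanges the nucleotide of Hsp70 and helps it dissolve aggregates, had levels of 0.37, 0.56 and 0.07 in water-restricted mice 1, 2 and 3, against -0.42, -0.39 and -0.19 in control mice 1, 2 and 3. The groups did not overlap. Its log2 difference was 0.67 (SE 0.17, with 3 mice in each group, limma adjusted p = 0.749). Without turning the sign of the 647 orientation the difference was -0.03. With the sign turned Hsph1 was positive on all 12 arrays, from 0.13 to 1.29, which held for 3 folding genes (4.48%) and 1.46% of all genes. The other 2 were Dnajb11 and Hspd1-ps3. No folding gene was negative on all 12 arrays, against 0.589% of all genes. Hsph1 holds a heat shock element match, shown above, and its 2 clones gave 0.60 and 0.74.

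Hspa8, the constitutive Hsp70 that most cytosolic chains meet first, had 0.19, 0.37 and -0.04 in the water-restricted mice, against -0.02, -0.50 and 0.01 in the control mice. Water-restricted mouse 3 lay below control mouse 3, so the groups overlapped, and the difference was 0.35 (SE 0.20, limma adjusted p = 0.996). All 5 clones of Hspa8 were positive, from 0.22 to 0.42. The difference was 0.18 without control mouse 2. Hspa4, another Hsp110 protein, had 0.10 (SE 0.16), and Hspa14, an Hsp70 protein found at ribosomes, had -0.08 (SE 0.18). Hspa12a, a distant Hsp70 relative, had -0.28 (SE 0.16) and was negative on 11 of 12 arrays.

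**Figure D2:**
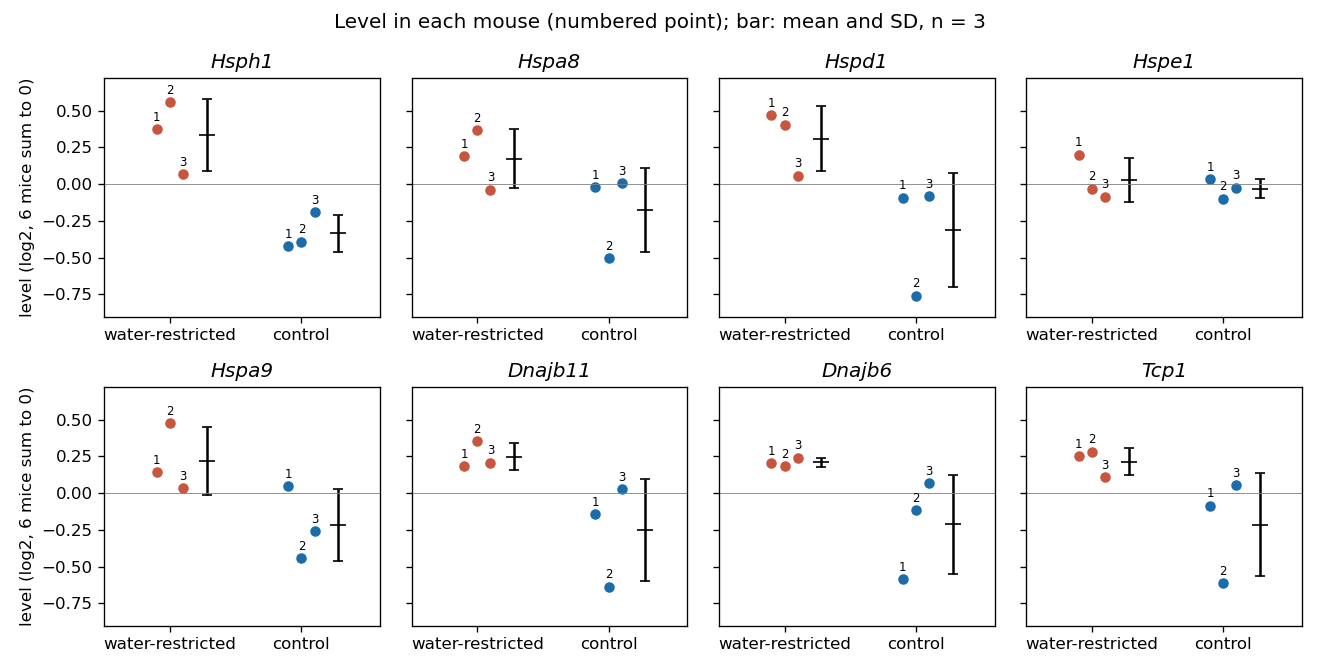
Level of 8 folding genes in each mouse (numbered points, log2, the 6 mice of a gene summing to 0), with water-restricted mice on the left of each panel and control mice on the right, and the mean and SD of the 3 mice (bars). The groups do not overlap for Hsph1, Hspd1, Dnajb11, Dnajb6 and Tcp1, and they overlap for Hspa8, Hspa9 and Hspe1.

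DnaJ proteins of the cytosol were positive in 7 of 9 cases, with a median log2 difference of 0.16. Dnajb6, which keeps aggregation-prone proteins soluble, had 0.21, 0.18 and 0.24 in the water-restricted mice, against -0.59, -0.11 and 0.07 in the control mice. The groups were separate, and the spread lay among the control mice. The difference was 0.42 (SE 0.19, limma adjusted p = 0.996), and it was 0.23 without control mouse 1. Its 2 clones disagreed, at -0.01 and 0.85, one of the largest gaps between clones of a folding gene. Dnajb1, the classical heat-inducible partner of Hsp70, had 0.07 (SE 0.16). The others were Dnaja1 at 0.30 (SE 0.24), a general partner of Hspa8, Dnajc21 at 0.26 (SE 0.18), or 0.14 without the mouse 2 array, the ribosome-bound Dnajc2 at 0.23 (SE 0.16), Dnajc7 at 0.16 (SE 0.16), which binds both Hsp70 and Hsp90, and Dnaja2 at 0.11 (SE 0.21). Below 0 were Dnajc5, the cysteine string protein of vesicles, at -0.03 (SE 0.15) and Dnajb4 at -0.10 (SE 0.17).

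The Hsp90 machinery was split. Hsp90aa1, the inducible cytosolic Hsp90, had 0.21, 0.16 and 0.02 in the water-restricted mice, against -0.09, -0.13 and -0.18 in the control mice. The groups were separate, though the gap between water-restricted mouse 3 and control mouse 1 was narrow. The difference was 0.26 (SE 0.14, limma adjusted p = 0.996), with 9 clones from -0.04 to 0.54. Hsp90ab1, the constitutive form, is not among the genes analysed here. Chordc1, an Hsp90-binding protein with 3 overlapping heat shock element matches, had 0.33 (SE 0.21) and was positive on 11 of 12 arrays. It is named for that match.

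Stip1, which hands chains from Hsp70 to Hsp90, lay on the other side at -0.17 (SE 0.19), and its 3 clones ran from -0.55 to 0.14. It was at -0.03 without the mouse 2 array and at 0.07 with the median over clones. The prolyl isomerases that dock on Hsp90 in steroid receptor complexes lay on both sides, and they were picked after their values were seen. Fkbp4 had 0.44 (SE 0.34), with 2.69 on the mouse 2 array and a difference of 0.15 without it. Fkbp5, a gene known to be switched on by glucocorticoids, had 0.50 with an SE of 0.48. Its levels were -0.10, -0.42 and 1.28 in the water-restricted mice, against -0.83, 0.56 and -0.49 in the control mice, so that 1 mouse stood above all others. Ppid had -0.24 (SE 0.17).

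All measured subunits of the CCT ring, which folds actin and tubulin, were positive. The log2 differences of the 7 subunits had a median of 0.36, and were 0.43 (SE 0.20) for Tcp1, 0.37 (SE 0.27) for Cct5, 0.37 (SE 0.23) for Cct7, 0.36 (SE 0.34) for Cct4, 0.32 (SE 0.20) for Cct8, 0.10 (SE 0.14) for Cct3 and 0.03 (SE 0.16) for Cct2. No subunit passed (limma adjusted p = 0.996 for each). Tcp1 had 0.25, 0.28 and 0.11 in the water-restricted mice, against -0.09, -0.61 and 0.05 in the control mice, and was the only subunit whose groups did not overlap. It was 0.23 without control mouse 2 and -0.0066 without turning the sign.

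The mean level of the subunits was 0.06, 0.39 and -0.02 in the water-restricted mice, against 0.04, -0.46 and 0.002 in the control mice. In this mean water-restricted mouse 2 was highest and control mouse 2 lowest, and the other 4 mice lay close together. Single subunits did not all have that order. Cct3 had 0.09, 0.04 and 0.01 in the water-restricted mice, against -0.08, 0.09 and -0.15 in the control mice. Cct2 had 0.05, 0.11 and -0.11 in the water-restricted mice, against 0.13, -0.23 and 0.05 in the control mice, with control mouse 1 at the top. The array of those mice gave 2.71 for Cct4, 2.30 for Cct5 and 2.20 for Cct7, where the next highest array of the same orientation gave 0.11, 0.34 and 0.87. Without it the differences were 0.04 for Cct4, 0.13 for Cct5, 0.15 for Cct7, 0.28 for Cct8 and 0.36 for Tcp1, and Cct2 was at -0.0013. Cct3 was at 0.15.

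**Figure D3:**
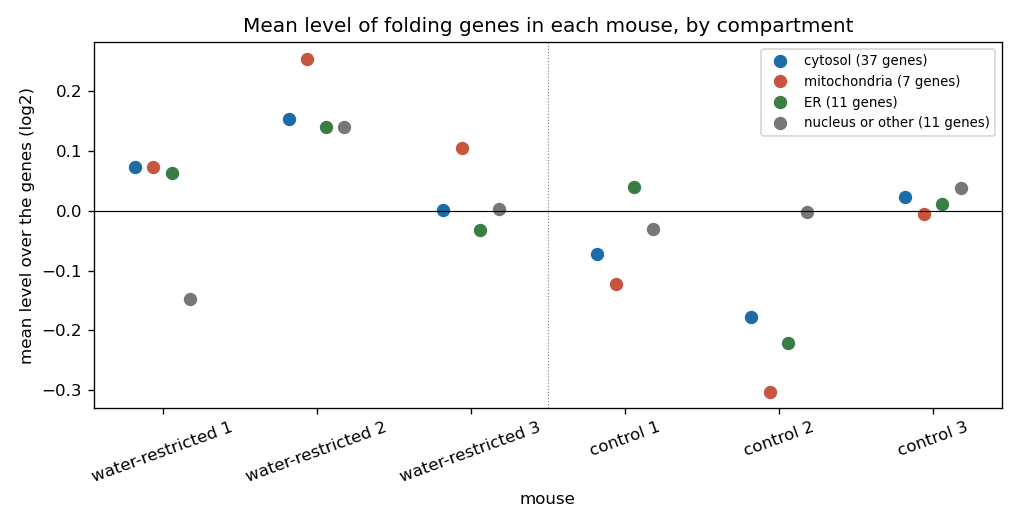
Mean level (log2) of the folding genes of each compartment in each mouse, the 3 water-restricted mice left of the dotted line and the 3 control mice right of it. Water-restricted mouse 2 is the highest and control mouse 2 the lowest for the cytosol, mitochondria and ER, and the other mice lie closer to 0.

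The same pair of mice set the extremes of the compartment means. Mean levels of the cytosolic genes were 0.07, 0.15 and 0.001 in the water-restricted mice, against -0.07, -0.18 and 0.02 in the control mice. For mitochondrial genes the water-restricted mice had 0.07, 0.25 and 0.11, against -0.12, -0.30 and -0.01 in the control mice, with no overlap of the groups. For ER genes the water-restricted mice had 0.06, 0.14 and -0.03, against 0.04, -0.22 and 0.01 in the control mice. Without control mouse 2 the medians of the log2 differences were 0.13 in the cytosol, 0.18 in mitochondria and 0.04 in the ER. Without water-restricted mouse 2 they were 0.14, 0.22 and -0.02. With water-restricted mouse 1 left out the mitochondrial median was 0.36, and with mouse 3 of that group left out 0.14. Leaving out control mouse 1 gave 0.12, and leaving out control mouse 3 gave 0.41. The ER median was 0.05 without water-restricted mouse 1.

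Among the small heat shock proteins, which hold unfolding proteins without ATP, Cryab had 0.27 (SE 0.16) and Hspb1 -0.06 (SE 0.21). Hspb8, which works with Bag3 in the removal of damaged proteins, had the most negative difference of all folding genes at -0.60 (SE 0.44, limma adjusted p = 0.996). Its levels were -0.02, 0.21 and -1.09 in the water-restricted mice, against 0.08, -0.34 and 1.15 in the control mice. Water-restricted mouse 3 was the lowest and control mouse 3 the highest, and their array gave -2.92. With the first of these mice left out Hspb8 had -0.20, and with the other -0.17, and it was negative on 11 of 12 arrays.

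BAG proteins release the nucleotide of Hsp70. Of 6 measured, 4 were positive. Bag3, the stress-inducible partner of Hspb8, had 0.13, 0.52 and -0.12 in the water-restricted mice, against -0.15, -0.27 and -0.10 in the control mice. Water-restricted mouse 3 lay among the control mice, and the difference was 0.35 (SE 0.19, limma adjusted p = 0.996), or 0.18 without water-restricted mouse 2. Bag5 had 0.24 (SE 0.16), or 0.36 without the mouse 2 array, Bag1 0.22 (SE 0.15) and Bag4 0.05 (SE 0.15). Bag6, which guards membrane proteins before insertion, had -0.09 (SE 0.18), and Bag2, an inhibitor of the ubiquitin ligase of Hsp70, had -0.31 (SE 0.17).

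The remaining cytosolic prolyl isomerases lay near 0, with Fkbp1a, the binding protein of tacrolimus, at 0.10 (SE 0.16) and Ppia, the binding protein of cyclosporin, at 0.07 (SE 0.17).

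Mitochondria were the compartment with every folding gene on the positive side. In each dye orientation alone 6 of the 7 were positive, and 5 were in both. Hspd1, the barrel of the mitochondrial ring, had 0.47, 0.41 and 0.06 in the water-restricted mice, against -0.09, -0.76 and -0.08 in the control mice. No control mouse reached a water-restricted one, and control mouse 2 was far below the others. The difference was 0.62 (SE 0.22, limma adjusted p = 0.880), positive on 11 of 12 arrays. Without control mouse 2 it was 0.40, and without turning the sign of the 647 orientation it was 0.07.

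Hspe1, the lid of that ring, had 0.20, -0.03 and -0.08 in the water-restricted mice, against 0.03, -0.10 and -0.02 in the control mice. The groups overlapped, and the difference was 0.06 (SE 0.15, limma adjusted p = 0.996). Both genes share the heat shock element stretch shown above. The level of Hspd1 minus that of Hspe1 was 0.27, 0.44 and 0.14 in the water-restricted mice, against -0.12, -0.66 and -0.06 in the control mice. The gap was above 0 in each water-restricted mouse and below 0 in each control mouse, and it is a description with no test, since these are the highest and the lowest difference among the mitochondrial genes.

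Hspa9, the mitochondrial Hsp70 that pulls chains through the inner membrane, had 0.14, 0.48 and 0.03 in the water-restricted mice, against 0.05, -0.44 and -0.26 in the control mice. Control mouse 1 lay just above water-restricted mouse 3, and the difference was 0.43 (SE 0.19, limma adjusted p = 0.996). Its DnaJ partner Dnaja3 had 0.48 (SE 0.23), which was 0.25 without the mouse 2 array, where it reached 2.03. Dnajc11, of the inner membrane scaffold, had 0.24 (SE 0.21). Leaving out control mouse 1 gave 0.12, leaving out control mouse 3 gave 0.41, and leaving out water-restricted mouse 3 gave 0.13. Dnajc15, of the import motor, had 0.11 (SE 0.15) and Dnajc30 0.07 (SE 0.16). Without the mouse 2 array Dnajc15 had 0.03 and Dnajc30 -0.01.

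Hspd1-ps3 is annotated as a pseudogene of Hspd1 on chromosome 11. Its level was 0.29, 0.37 and 0.04 in the water-restricted mice, against -0.09, -0.52 and -0.09 in the control mice. Water-restricted mouse 3 was the lowest of its group and control mouse 2 the lowest of all 6, which was also so for Hspd1. The difference was 0.47 (SE 0.18, limma adjusted p = 0.915), positive on all 12 arrays. On a clone, transcripts of a gene and of its near-identical copy cannot be told apart, so the value is uncertain and is no separate support for that of Hspd1.

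Among the DnaJ proteins placed in the ER here 4 of 4 were positive, with a median of 0.27. Without the mouse 2 array 3 of 4 were, and Dnajc10 was negative. Dnajc14, a DnaJ protein placed with the other sites here, had -0.07 (SE 0.17), so the count depends on the placing. Of the protein disulphide isomerases 1 of 3 was positive, and the families were not tested against each other. Dnajb11, a partner of the ER Hsp70 and a component of its secretory folding complex, had 0.19, 0.35 and 0.21 in the water-restricted mice, against -0.14, -0.64 and 0.03 in the control mice. The groups did not overlap, and the control mice spread more widely than the water-restricted mice. The difference was 0.50 (SE 0.20, limma adjusted p = 0.920), with 12 of 12 arrays positive from 0.05 to 1.43. It was 0.38 without the mouse 2 array and 0.30 without control mouse 2.

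Dnajb9, which directs misfolded chains to degradation, had 0.13, 0.22 and 0.08 in the water-restricted mice, against -0.24, 0.01 and -0.19 in the control mice. The groups did not overlap, and the difference was 0.28 (SE 0.15, limma adjusted p = 0.996), or -0.06 without turning the sign. Dnajc10, an ER disulphide reductase, had 0.27 with an SE of 0.49, and its 2 clones gave -0.26 and 0.79. The mouse 2 array gave 3.71, where the next highest of that orientation gave 0.02, and without it the difference was -0.15. Dnajc25 had 0.10 (SE 0.24).

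The protein disulphide isomerases, which make and shuffle disulphide bonds, gave 0.04 (SE 0.20) for Pdia6, -0.08 (SE 0.18) for Pdia5 and -0.17 (SE 0.15) for Pdia3. Pdia6, which holds the ER stress element letters, had -0.08 without the mouse 2 array. Hsp90b1, the ER form of Hsp90 with 2 such matches, had 0.42, 0.20 and -0.32 in the water-restricted mice, against 0.10, -0.36 and -0.02 in the control mice. The groups overlapped, and the difference was 0.20 (SE 0.23). Ppic, a cyclophilin of the secretory pathway, had 0.29 (SE 0.25), and leaving out control mouse 2 gave 0.04, while leaving out mouse 1 of that group gave 0.52. Fkbp9 had -0.04 (SE 0.16) and Hspa13, an ER-associated Hsp70 relative, had -0.13 (SE 0.20), or 0.03 without the mouse 2 array.

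The 3 genes that the symbol rule leaves out lay on the same side. Hspa5, the ER Hsp70, had 0.59 (SE 0.22), Hspa4l, a hypertonicity-inducible Hsp110 protein, 0.54 (SE 0.34), and Dnajc3, an ER DnaJ protein, 0.34 (SE 0.15).

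In the nucleus and other sites 8 of 11 genes were negative. Fkbp3, a nuclear prolyl isomerase, had -0.18, -0.20 and -0.04 in the water-restricted mice, against 0.01, 0.19 and 0.22 in the control mice. The groups did not overlap, and the difference was -0.28 (SE 0.15, limma adjusted p = 0.996), negative on 11 of 12 arrays. Dnajc8, a splicing factor, had -0.11 (SE 0.16), and Dnajc17, also of the nucleus, -0.07 (SE 0.19). On the positive side were Fkbp8, anchored in the mitochondrial outer membrane, at 0.30 (SE 0.22), Ppih, of the spliceosome, at 0.27 (SE 0.49), and Dnajc13, of endosomes, at 0.13 (SE 0.15). Fkbp8 was at 0.15 without the mouse 2 array, and Ppih, which reached 3.28 on that array, was at -0.22 without it. The other 5, Dnajc9, Dnajc14, Ppig, Fkbp15 and Bag6, lay between -0.09 and -0.0005.

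With the sign turned, the positive side differed between the dye orientations. In the 546 orientation 49 of 67 folding genes were positive, with a median log2 difference of 0.23, and in the 647 orientation 37 were, with a median of 0.02. Over all genes the medians were 0.05 and -0.04. By compartment the medians in the 546 and the 647 orientation were 0.35 and 0.03 in the cytosol, 0.37 and 0.07 in mitochondria, and 0.23 and -0.05 in the ER. In both orientations 28 folding genes were positive (41.8%), against 24.5% of all genes. These include Hsph1, at 0.59 and 0.66, Hspd1, at 0.71 and 0.52, Dnajb11, at 0.56 and 0.36, Dnajb6, at 0.46 and 0.36, and Tcp1, at 0.37 and 0.38.

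The dye term is the part of the ratio that follows the dye and not the mouse, if turning the sign was right. If the deposited ratios were already turned, it is instead an estimate of the difference between groups. It was above 0 for 51 folding genes (76.1%), against 59.7% of all genes. By limma on the 12 arrays it passed for 5 folding genes, all positive (7.46%), against 6.62% of all genes and 5.11% on the positive side. Hspa8 had 0.42 (SE 0.08, limma adjusted p = 0.0210), and its difference was 0.78 in the 546 orientation and -0.07 in the 647 orientation. The others were Cct2 at 0.35, Dnajb1 at 0.33, Bag3 at 0.28 and Dnajc17 at 0.28 (limma adjusted p from 0.0383 to 0.0476). Hspa9 had 0.77 and 0.05 in these orientations and Cct7 had 0.78 and -0.16. Why a gene's ratio follows the dye was not tested.

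**Figure D4:**
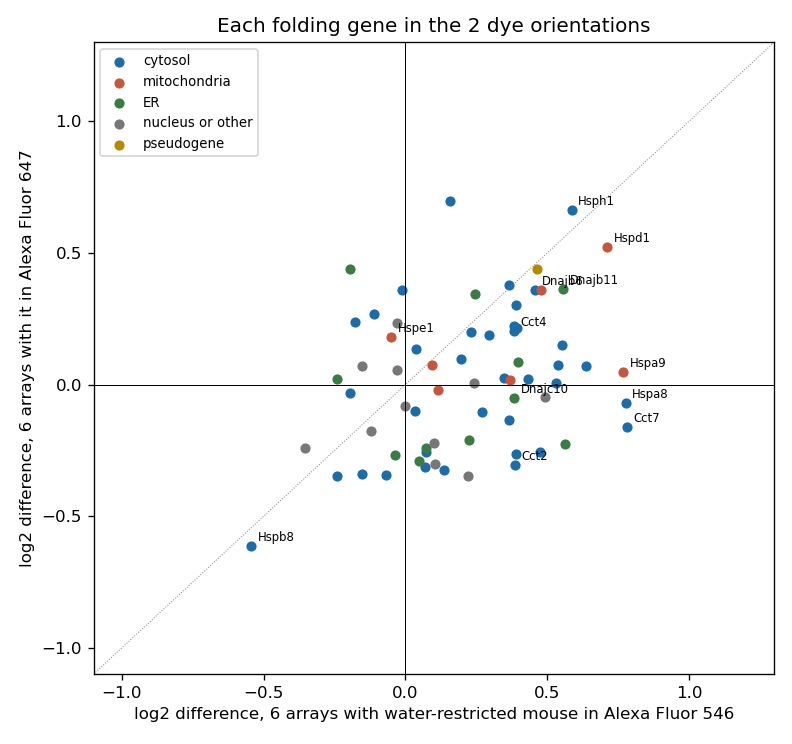
Log2 difference, water-restricted minus control, of each folding gene in the 546 orientation (horizontal axis) and in the 647 orientation (vertical axis), 6 arrays each, with equality on the dotted line. Hsph1, Hspd1, Dnajb11 and Hspd1-ps3 lie near the line on the positive side, and Hspa8, Hspa9 and Cct7 lie far to its right.

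Folding genes did not differ between mice of the same group past the threshold. By limma's F-test on 12 arrays, 0 of 67 folding genes were called (adjusted p from 0.248 to 0.988), against 14 of 6786 genes (0.206%).

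Clones of the same gene were a second source of spread. The 67 genes were measured by 127 clones, 36 genes by several and 31 by 1. In 22 of the 36 all clones lay on 1 side, and the median gap between the highest and the lowest clone was 0.20, about as large as the median log2 difference of cytosolic or mitochondrial genes.

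Other folding genes, taken from a list of 53, gave 29 measured genes, with a median log2 difference of 0.08 and 0 called by limma. Of these 19 were positive (65.5%), against 50.7% of all genes. Grpel1, the nucleotide exchange factor of Hspa9, had 0.44 (SE 0.14, limma adjusted p = 0.771) and was positive on 11 of 12 arrays, and its relative Grpel2 had -0.04 (SE 0.30). Trap1, the mitochondrial Hsp90, had 0.40 (SE 0.22). The groups of Grpel1 and Trap1 were the only ones of the 29 without overlap, each on the positive side. Groups without overlap made up 5.94% of all genes on the positive side and 3.86% on the negative side. Prefoldin passes new chains to the CCT ring, and 3 of its 5 measured subunits were positive, Pfdn4 at 0.16 (SE 0.19), Pfdn6 at 0.07 (SE 0.16) and Pfdn1 at 0.07 (SE 0.24). Vbp1 at -0.50 (SE 0.53) and Pfdn5 at -0.49 (SE 0.26) were negative. Genes of the ER lectin cycle lay at 0.23 (SE 0.29) for Calr and 0.17 (SE 0.17) for Canx.

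Markers of nephron segments differed among the same mice. Of 24 listed proximal tubule genes 5 were measured, and their mean level was 0.39, 0.43 and 0.54 in the water-restricted mice, against 0.22, -0.92 and -0.66 in the control mice. Of the 5 genes 4 had a positive difference, and Cyp7b1 had -0.08 (SE 0.15), with control mouse 2 the highest at 0.18. In control mouse 1 Gatm had 0.65 and Slc22a7 0.91, but Miox had -0.64. By limma's F-test 2 of the 5 differed between mice of the same group, against 0.206% of all genes. Of 14 principal cell genes of the collecting duct 5 were measured, and their mean level was -0.33, -0.28 and -0.33 in the water-restricted mice, against 0.11, 0.32 and 0.51 in the control mice. Over all folding genes the mean level was 0.04, 0.16 and 0.01 in the water-restricted mice, against -0.05, -0.17 and 0.02 in the control mice. Control mouse 2 was the lowest in the mean of the proximal tubule markers and in that of the folding genes, but other mice differed in order. Control mouse 3 was at -0.66 in the first and 0.02 in the second. Water-restricted mouse 3 was the highest in the first and water-restricted mouse 2 in the second. The part of the segments in the differences of the folding genes was not tested.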

How the data were processed

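The deposited values are log2 ratios between the channels, 1 for each of 31200 spots on an array, with the base read from the values. How the authors corrected, normalized and directed them is not given in the sources used. The 2 adjacent spots of a clone were averaged, and the 9191 clones with 1 gene in the platform annotation were averaged to 6786 genes. The sign of the 6 arrays in the 647 orientation was turned. Weighted least squares, with a dye term and a weight of 0.5 for the arrays of a swapped pair, gave 6 mouse levels, which were compared 3 against 3 with limma 3.58.1 in R 4.3.3 (Benjamini-Hochberg over all 6786 genes, threshold 0.05). Both groups share array noise, so the SE and p from the mouse levels can be too large. That no gene passed does not show that no gene differs. Limma on the 12 arrays tested the dye term and the differences between mice of a group. The random mouse effects fit used the same variance ratio, 0.15, for all genes. The procedure was run on simulated data in which every gene had the same spread between mice. No array like the mouse 2 array was simulated, so that run does not show how the fits behave on these data.

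Members and lists were chosen with earlier results of these data known. Named genes were, per compartment, the 4 with the smallest p and both extremes, those with 1 sign on 12 arrays or past a threshold, the 3 with the widest clone spread, and the Hspd1, Hsp90, Hspa8, CCT and disulphide isomerase sets. Other genes are named to complete their family, after their values were seen. Deviations of same-numbered mice correlated at -0.0149, -0.542 and -0.114, and those of differently numbered mice ran from -0.497 to 0.497. The levels share arrays, so these values cannot show whether the numbers pair the mice. The main fit used no pairing. Promoters are from RefSeq, GRCm38.p6. The number of arrays limits the precision.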

Additional observations from a re-analysis of the deposited data

Results flagged for a closer look

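Gaps of single arrays were examined in 72 sets of 6 arrays of 1 dye orientation, those of 33 named genes and of the compartment medians. In 12 sets the outermost array stood apart, and chance alone sets about 1 in 20 apart. The mouse 2 array, with the widest spread of all arrays, was the outermost in 8 of them. It gave 3.71 for Dnajc10, 2.71 for Cct4, 2.30 for Cct5, 2.20 for Cct7, 2.03 for Dnaja3, 1.43 for Dnajb11, 1.14 for Pdia6 and 0.594 for Dnajc8. The next highest arrays of these genes in that orientation lay between -0.14 and 0.87.

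In the other 4 sets different arrays stood apart. Hspb8 had -2.92 where water-restricted mouse 3 met control mouse 3, and the next lowest was -0.43. In the 647 orientation Hsph1 had 0.167 on the array of water-restricted mouse 3 with control mouse 2, below the next at 0.69, and Dnajc8 had 0.306 on that of water-restricted mouse 3 with control mouse 1, above the next at -0.20. The median of the cytosolic genes was -0.0932 in the 647 orientation for water-restricted mouse 2 with control mouse 1, and the next was 0.04.

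With the sign turned, the dye orientations differed past the threshold by limma's test of the dye term in 5 folding genes. The dye term was 0.42 for Hspa8 (adjusted p = 0.0210), 0.35 for Cct2 (adjusted p = 0.0476), 0.33 for Dnajb1 (adjusted p = 0.0383), 0.28 for Bag3 (adjusted p = 0.0475) and 0.28 for Dnajc17 (adjusted p = 0.0383).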

How the results depend on the processing

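Of 33 named genes, 15 kept their side under all 21 alternatives and 18 did not. Of the 21, 4 (the replicate block, no dye term, robust variances and the other threshold) leave each difference as it is by construction, so only 17 bear on the side. No folding gene passed limma's threshold between groups except under random mouse effects (1 folding gene and 99 genes in all) and with arrays taken as replicates, which overstates the number of mice (9 folding genes and 451 genes). With the 647 orientation alone, and with swapped pairs alone, 1 gene passed, no folding gene. The mouse number as a replicate block can change only the p, so 46 folding genes were positive as before, and 0 passed. Without the mouse 2 array the dye term passed for 8 folding genes, with median centring for 2, with scale normalization for 3, at a threshold of 0.1 for 10, and without any 1 mouse for 0, in fits with fewer arrays. Compartment medians (cytosol, mitochondria, ER) were 0.35, 0.37 and 0.23 in the 546 orientation, 0.027, 0.073 and -0.052 in the 647 orientation, and 0.11, 0.084 and -0.030 with swapped pairs alone. Without turning the sign they were 0.094 in the cytosol, 0.080 in mitochondria and 0.11 in the ER, so the ER was then the highest. Leaving out 1 mouse gave 0.13 to 0.21 in the cytosol, 0.12 to 0.41 in mitochondria and -0.021 to 0.15 in the ER.

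Sides turned as follows, and the cause was not tested. Without the mouse 2 array, Cct2 had -0.0013, Dnajc10 -0.15 and Pdia6 -0.078. With scale normalization Pdia6 had -0.0073, and with the median over clones Stip1 had 0.067. In the 546 orientation, Dnajc13 had -0.029, Dnajc17 0.22, Hspe1 -0.050, Pdia5 0.046 and Stip1 0.071. In the 647 orientation, Cct2 had -0.31, Cct3 -0.14, Cct7 -0.16, Dnajb1 -0.27, Dnajc10 -0.052, Fkbp8 -0.047, Hspa8 -0.069 and Pdia6 -0.21. With swapped pairs alone, Dnajc10 had -0.14, Fkbp8 -0.019, Pdia6 -0.085 and Stip1 0.13. Without turning the sign, Dnajb9 had -0.061, Dnajc13 -0.10, Dnajc17 0.28, Dnajc8 0.053, Hspe1 -0.14, Hsph1 -0.035, Pdia3 0.097, Pdia5 0.17, Stip1 0.19 and Tcp1 -0.0066. Leaving out 1 mouse gave -0.074 to 0.11 for Cct2, -0.22 to 0.60 for Dnajc10, -0.18 to 0.083 for Dnajc17, -0.028 to 0.12 for Hspe1, -0.20 to 0.050 for Pdia5 and -0.16 to 0.15 for Pdia6.

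The sign was turned by the dye labels. Swapped arrays correlated only weakly after turning, at 0.136, -0.13 and 0.133, and do not show whether the turning is right. If the deposited ratios were already turned, the values without turning apply, and the dye term estimates the difference between groups. Signal over background could not be examined.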
